A study of Mus musculus with 45 samples.

Results

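The 10 genes described here carry sphingosine 1-phosphate (S1P) through its synthesis, breakdown and export. They were the sphingosine kinases Sphk1 and Sphk2, the acid ceramidase Asah1, the S1P lyase Sgpl1, the S1P phosphatases Sgpp1 and Sgpp2, the lipid phosphate phosphatases Plpp1 and Plpp3 and the S1P transporters Spns2 and Mfsd2b. They were taken by symbol from the 55450 genes of an RNA-sequencing table, and all 10 were in it. The table held 45 samples of lymphocytes sorted from the draining popliteal lymph nodes of immunized mice, in 8 groups made of 4 cell populations and 2 genotypes. S1PR4-/- mice carried the S1pr4tm1Dgen allele in every cell, on a C57/BL6 background after 10 or more backcrosses, and were compared with wild-type (WT) littermates, males and females of 8 to 12 weeks. Every mouse, WT included, had received OVA (50 µg) and LPS (5 µg) emulsified in IFA, in a volume of 20 µL in the hind footpad. Germinal center (GC) B cells (B220+ GL7+ Fas+) and non-GC B cells (B220+ GL7- Fas-) were sorted on day 9. T follicular helper (Tfh) cells (CD4+ PD1+ CXCR5+) and non-Tfh CD4+ T cells (PD1- CXCR5-) were sorted on day 6, so lineage and day cannot be told apart. There were 6 samples per group, except 5 of WT and 4 of S1PR4-/- non-GC B cells.

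S1P is a signaling lipid that is abundant in blood and lymph and scarce inside lymphoid tissue, and lymphocytes read this gradient through S1P receptors when they leave lymph nodes. Ceramidases release sphingosine from ceramide, and sphingosine kinases phosphorylate it to S1P. S1P is then cleaved irreversibly by the lyase, returned to sphingosine by phosphatases, or exported by transporters, and S1P outside the cell can be dephosphorylated by lipid phosphate phosphatases. In the GC, receptors for S1P help to confine B cells and Tfh cells to the follicle, and stromal cells, endothelium and blood cells are the known main sources and sinks of the lipid.

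The members that set GC B cells apart from non-GC B cells most were Plpp1, higher in GC B cells, and Spns2 and Plpp3, both lower. The 250 bases upstream of the RefSeq starts of Plpp3 and Spns2 are shown because these 2 genes shared a B cell pattern across all groups. They are from GRCm38.p6, 5′ to 3′ on the gene's strand, at chr4:105157097-105157346 (plus strand) and chr11:72475028-72475277 (minus strand). Capitals mark the letters TATAA.
Plpp3: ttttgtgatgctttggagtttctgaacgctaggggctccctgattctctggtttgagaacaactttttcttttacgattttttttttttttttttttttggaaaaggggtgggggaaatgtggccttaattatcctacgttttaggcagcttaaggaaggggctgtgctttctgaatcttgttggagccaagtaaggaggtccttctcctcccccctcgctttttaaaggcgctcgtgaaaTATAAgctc
Spns2: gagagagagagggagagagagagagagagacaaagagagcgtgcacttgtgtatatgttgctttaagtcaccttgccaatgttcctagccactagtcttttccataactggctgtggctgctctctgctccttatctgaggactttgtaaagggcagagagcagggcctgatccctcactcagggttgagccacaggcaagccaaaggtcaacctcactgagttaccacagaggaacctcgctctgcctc
The Plpp3 stretch holds 6 CG dinucleotides at a GC content of 42.4% and has TATAA close to the start. The Spns2 stretch holds 2 CG dinucleotides at a GC content of 51.6% and has no TATAA. The other motifs searched on both strands were GGGCGG (the GC box), CACCC (a motif of Krüppel-like factors) and TTCNNNGAA (a motif of STAT factors), and of these only CACCC occurred, 1 time in the Plpp3 stretch. The RefSeq start of Spns2 lies inside the GENCODE gene, whose 5′ end is at 72489904, so another start may be used. The same windows of Sgpl1, Sgpp1 and Sgpp2 hold 31, 24 and 24 CG dinucleotides, and those of Sphk2 hold 27 and 20. The window of Mfsd2b holds 12, and those of the several starts of Sphk1 hold 4 to 19. Among 32851 RefSeq promoters of the same length, the median was 6 CG dinucleotides. TATAA was in 22.8% of them, the GC box in 32.7%, the Krüppel-like motif in 52% and the STAT motif in 7.02%. Of the 10 genes, 8 were in the promoter table, and Plpp1 and Asah1 were not.

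Each sample had between 26299429 and 45548215 expected counts (median 34188292). S1pr4, the targeted gene, was at 1.02 CPM (counts scaled to library size after TMM normalization) or below in the 22 S1PR4-/- samples and at 17.1 CPM or above in the 23 WT samples. Cell type markers followed the labels. The summed level of 13 T cell markers was 10196 to 14041 CPM in the T cell groups and 68.6 to 170 CPM in the B cell groups, and that of 8 GC B cell markers was 1347 to 2365 CPM in GC B cells and 127 to 184 CPM in non-GC B cells. RNA of other cells nevertheless differed between libraries. Ighd, a gene of naive B cells, was at 47, 63.9 and 59.4 CPM in WT Tfh replicates 1, 2 and 3 and at 36.9 CPM in S1PR4-/- Tfh replicate 3, and at 7.21 CPM or below in the other Tfh libraries. The plasma cell gene Jchain was at 4920 CPM in WT GC B replicate 2 and at 5206 and 12006 CPM in S1PR4-/- GC B replicates 2 and 3. The other GC B libraries also held Jchain, at 1194 to 3275 CPM. Its mean was 84.6 CPM in WT and 95.3 CPM in S1PR4-/- non-GC B cells. Ighd was highest among GC B libraries in WT replicate 6, at 1185 CPM. Values without these 8 libraries are given for some of the results they touch, Plpp1, Plpp3 and Spns2 in GC B cells among them. The 8 libraries were chosen after seeing the data, from markers of B and plasma cells. In sorted populations measured in bulk, fewer cells of a kind and less RNA per cell cannot be told apart.

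**Figure D1:**
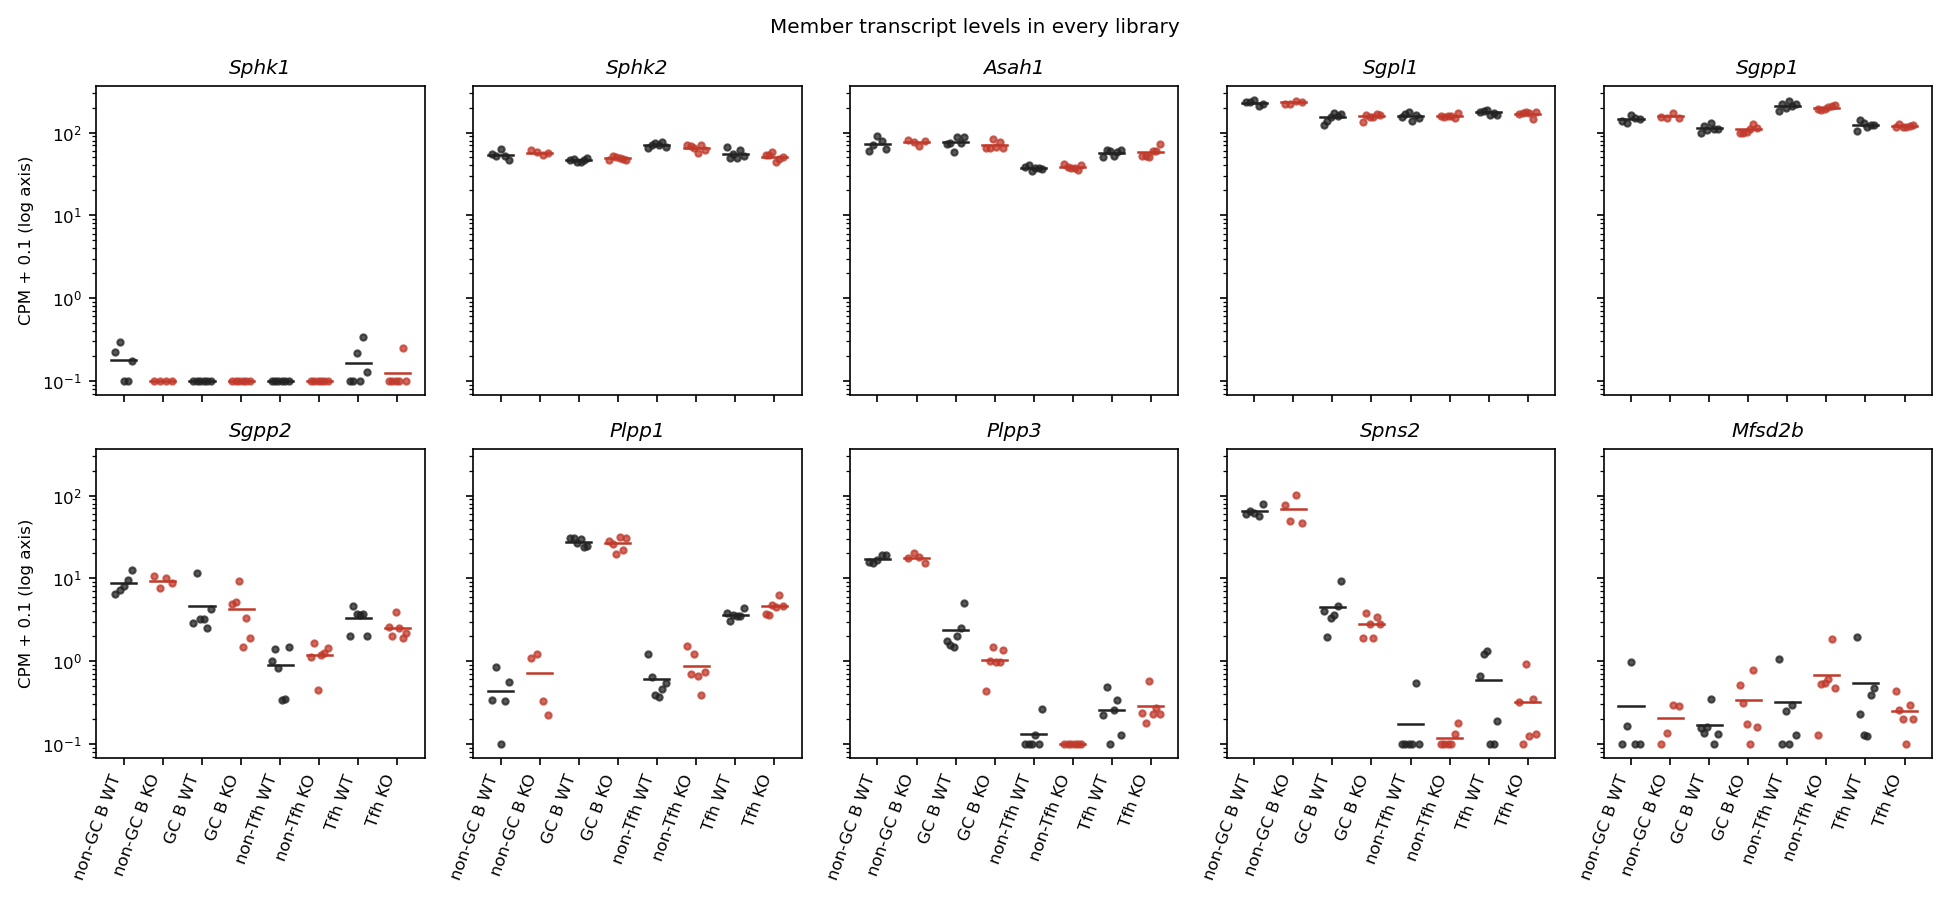
Level of each of the 10 genes in every library, as CPM plus 0.1 on a log axis; black points are WT and red points S1PR4-/- samples, and a line marks the mean of each group. Spns2 and Plpp3 are highest in both non-GC B groups, Plpp1 is highest in both GC B groups, and Sphk1 lies at or near the bottom of the axis in every library.

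Compared per length of transcript, the breakdown enzymes led. In WT non-GC B cells, the level in CPM per kilobase of exon was 37.5 for Sgpl1, 25.7 for Sgpp1, 21.4 for Asah1, 15.7 for Spns2, 12.9 for Sphk2, 5.41 for Plpp3, 2.17 for Sgpp2 and 0.193 for Plpp1. In WT GC B cells it was 24.8 for Sgpl1, 22.4 for Asah1, 19.9 for Sgpp1, 15.7 for Plpp1, 11.1 for Sphk2, 1.13 for Sgpp2, 1.07 for Spns2 and 0.722 for Plpp3. Plpp1 thus stood where Spns2 had stood among the members, while Sgpl1 stayed at the top and Sgpp1 and Asah1 changed places.

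The kinases were represented by Sphk2 alone. Sphk1, on chromosome 11 (116530925 to 116536674 in mm10), had 32 counts in all, in 7 of 45 samples, with at most 9 in 1 sample, and passed the filter on low counts in none of the group comparisons. A total of 3 counts, taken as the detection limit of a library, correspond to between 0.0666 and 0.116 CPM, so lower levels of Sphk1 could not be seen. Sphk2 was at 53.8 ± 6.26 CPM (SD, n = 5) in WT non-GC B, 46.1 ± 2.06 (SD, n = 6) in WT GC B, 70.7 ± 4.44 in WT non-Tfh and 55.6 ± 6.93 CPM in WT Tfh cells. In the order of means every group overlapped the next. The log2 fold change in Tfh cells was -0.35 in WT (adjusted p = 0.00121, edgeR) and -0.34 in S1PR4-/- mice (adjusted p = 0.00105), under the fold threshold. All S1PR4-/- GC B samples lay below all S1PR4-/- non-GC B samples, with a log2 fold change of -0.17 (adjusted p = 0.049, edgeR). Exons of Sphk2 share 539 bases with Dbp and 373 with Rpl18, and its counts were not whole numbers in 45 of 45 samples, so some of its reads were divided between genes.

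The transporter Spns2, which releases S1P from cells (chromosome 11, 72451638 to 72489904), was highest in non-GC B cells. Its levels in the 5 WT non-GC B samples were 60.5, 65.4, 60.8, 56.1 and 78.7 CPM, and in the 4 S1PR4-/- samples 76.1, 49.2, 102 and 46.6 CPM. In GC B cells it ran from 1.85 to 9.24 CPM (median 3.72) in WT and from 1.81 to 3.7 CPM (median 2.73) in S1PR4-/- mice. No GC B sample reached the lowest non-GC B sample, and the group means were 14.7-fold lower in WT and 25.5-fold lower in S1PR4-/- GC B cells. Spns2 fell in GC B cells of both genotypes, with a log2 fold change of -3.82 in WT (standard error, SE, 0.31, 95% interval -4.49 to -3.14, adjusted p = 3.83e-07, edgeR's quasi-likelihood test with Benjamini-Hochberg adjustment). In S1PR4-/- cells it was -4.61 (SE 0.28, adjusted p = 1.27e-07, edgeR). Without the GC B libraries with RNA of other cells these values of Spns2 were -4.02 and -4.75. WT replicate 6, 1 of the libraries left out, was the highest GC B library in Ighd, Spns2 and Plpp3 alike, so the choice was not independent of these values. In T cells Spns2 was near the detection limit. It was at 0.555, 1.11 and 1.22 CPM in WT Tfh replicates 1 to 3, the libraries with B cell RNA, and at 0, 0 and 0.0864 CPM in replicates 4 to 6. In WT non-Tfh cells its 16 counts were all in replicate 5.

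Mfsd2b, the S1P transporter of red blood cells and platelets, was barely detected. It had a count in 36 of 45 samples and at most 60 counts in 1 sample. In S1PR4-/- non-Tfh cells it was at 0.587 ± 0.597 CPM (SD, n = 6) and in S1PR4-/- Tfh cells at 0.147 ± 0.112 CPM, and the samples of these groups overlapped. The log2 fold change passed the test at -1.91 (SE 0.74, adjusted p = 0.0316, edgeR), but when replicate numbers were entered as a block the adjusted p of Mfsd2b was 0.0896. Without S1PR4-/- Tfh replicate 3 it was 0.0568. Platelet markers summed to at most 0.873 CPM in any library with Ppbp at 0 throughout. The sum of 8 red blood cell markers ran from 0 to 13.1 CPM (median 0.0268) in S1PR4-/- non-Tfh libraries. It was at most 0.394 CPM in S1PR4-/- Tfh libraries and reached 24.3 CPM in S1PR4-/- GC B libraries. The part of red blood cell RNA in the Mfsd2b levels was not tested.

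Of the lipid phosphate phosphatases, which act on extracellular S1P and related lipids, Plpp1 and Plpp3 exchanged places between the B cell populations. Plpp1 ran from 23.9 to 30.7 CPM (median 28) in WT GC B cells and from 19.7 to 31.2 CPM (median 27.2) in S1PR4-/- GC B cells. In non-GC B cells it was at 0.24, 0.754, 0, 0.23 and 0.462 CPM in WT and at 0.981, 1.12, 0.225 and 0.125 CPM in S1PR4-/- samples. Every GC B sample lay far above every non-GC B sample, with means 81.6-fold higher in WT and 43-fold higher in S1PR4-/- mice. Plpp1 rose in GC B cells with a log2 fold change of 6.45 in WT (SE 0.49, 95% interval 5.38 to 7.52, adjusted p = 2.20e-07, edgeR) and 5.50 in S1PR4-/- mice (SE 0.53, adjusted p = 4.05e-06). The non-GC B samples held few counts of Plpp1, so the size of this fold is less certain than its direction. Without the GC B libraries with RNA of other cells the values of Plpp1 were 6.46 in WT and 5.60 in S1PR4-/- mice.

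Plpp1 lies on chromosome 13 (112800792 to 112867894 in mm10) and shares 452 exon bases, 25.8% of its exon length, with Mtrex, a gene on the opposite strand. In WT mice the level of Mtrex was 181 ± 13.2 CPM for GC B (SD, n = 6) and 180 ± 8.7 CPM for non-GC B cells (SD, n = 5). The study's methods name a stranded library kit, but whether strand was used in counting is not given in the sources used here.

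Plpp3 (chromosome 4, 105157347 to 105232764) was at 15.5, 15.2, 16.5, 19 and 19.3 CPM in WT non-GC B cells and at 17.3, 20.2, 17.8 and 15.1 CPM in the S1PR4-/- counterparts. Its GC B values ran from 1.39 to 4.9 CPM (median 1.77) in WT and from 0.334 to 1.38 CPM (median 0.891) in S1PR4-/- mice. Non-GC B samples lay above all GC B samples, and the WT and S1PR4-/- GC B groups all but met at 1.39 and 1.38 CPM. Plpp3 fell in GC B cells by 2.84 on the log2 scale in WT (SE 0.30, 95% interval -3.49 to -2.19, adjusted p = 3.31e-06, edgeR) and by 4.17 in S1PR4-/- mice (SE 0.30, adjusted p = 4.70e-07). Without the GC B libraries with RNA of other cells the values of Plpp3 were -3.16 and -4.32. In T cells it had 7 counts over the 6 WT non-Tfh samples and was at 0.156 ± 0.143 CPM (SD, n = 6) in WT Tfh cells. Per length, Plpp1 made up 89.9 to 97.4% (median 96.8) of the summed Plpp1 and Plpp3 level in WT GC B cells and 0 to 8.23% (median 2.72) in WT non-GC B cells.

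The lyase Sgpl1, which degrades S1P irreversibly and lies on chromosome 10, 20.4 Mb from S1pr4, ran from 124 to 171 CPM (median 156) in WT GC B cells and from 211 to 247 CPM (median 236) in WT non-GC B cells. All GC B samples of both genotypes lay below all non-GC B samples. Its log2 fold change was -0.53 in WT GC B cells (SE 0.08, adjusted p = 1.23e-04, edgeR) and -0.50 in S1PR4-/- GC B cells (adjusted p = 7.56e-05). These differences were under the fold threshold of 1.5 and are not counted as changes. WT non-GC B cells had the top WT level, above all WT Tfh samples, and the Tfh, non-Tfh and GC B groups overlapped.

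Sgpp1, the S1P phosphatase with the higher level of the pair, ran from 184 to 241 CPM (median 214) in WT non-Tfh cells and from 105 to 143 CPM (median 123) in WT Tfh cells. It ran from 185 to 218 CPM and from 115 to 126 CPM in the S1PR4-/- counterparts, and neither pair overlapped. Sgpp1 fell in Tfh cells by 0.78 on the log2 scale in WT (SE 0.08, adjusted p = 6.30e-07, edgeR) and by 0.73 in S1PR4-/- mice (SE 0.05, adjusted p = 2.73e-08). In GC B cells its log2 fold changes of -0.30 and -0.47 had adjusted p of 0.00553 and 3.90e-04 (edgeR) but did not reach the fold threshold.

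Sgpp2, the other S1P phosphatase, moved the opposite way in T cells. It ran from 1.88 to 4.57 CPM (median 3.56) in WT Tfh cells and from 0.238 to 1.36 CPM (median 0.81) in WT non-Tfh cells, without overlap. It rose in Tfh cells by a log2 fold change of 2.00 in WT (SE 0.42, adjusted p = 6.31e-04, edgeR) and 1.17 in S1PR4-/- mice (SE 0.31, adjusted p = 0.00389). With a score of B cell markers as a covariate the S1PR4-/- value of Sgpp2 was 0.86 and did not pass (adjusted p = 0.0535). At these levels Sgpp1 still made up 95.7 to 97.9% of the summed Sgpp1 and Sgpp2 level per length in WT Tfh cells. Exons of Sgpp2 share 248 bases with Farsb on the opposite strand, and its counts were not whole numbers in 40 of 45 samples. In WT mice mean Farsb was 143 CPM in Tfh and 126 CPM in non-Tfh cells. It was 192 CPM in GC B and 130 CPM in non-GC B cells, where Sgpp2 had the opposite order. The part of Farsb reads in Sgpp2 was not tested.

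In B cells Sgpp2 was at 8.7 ± 2.37 CPM (SD, n = 5) in WT non-GC B cells and ran from 2.39 to 11.6 CPM (median 3.11) in WT GC B cells. The value of 11.6 CPM was from replicate 2, a library with high Jchain, and in S1PR4-/- GC B cells the highest value, 9.09 CPM, was from replicate 3, the library with the most Jchain. The log2 fold change of Sgpp2 in GC B cells was -0.87 in WT (adjusted p = 0.0653, edgeR) and -1.08 in S1PR4-/- mice (adjusted p = 0.0483). The S1PR4-/- call was lost in 12 of 19 alternatives, and in WT Sgpp2 passed with the DESeq2 test (adjusted p = 0.0412) and limma voom (adjusted p = 0.00822). Without the GC B libraries with high Jchain or Ighd it was -1.53 (adjusted p = 1.27e-04) and -1.65 (adjusted p = 0.00342), but these libraries were the 2 highest in Sgpp2 of each genotype, so a larger difference was fixed by their choice. The part of plasma cell RNA in these Sgpp2 levels was not tested otherwise.

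Asah1, which releases sphingosine from ceramide in the lysosome, ran from 50.4 to 60.6 CPM (median 58.4) in WT Tfh cells and from 34.6 to 40.9 CPM (median 37.4) in WT non-Tfh cells. The groups did not overlap, and Asah1 rose in Tfh cells by 0.60 on the log2 scale in WT (SE 0.07, adjusted p = 1.25e-06, edgeR) and by 0.60 in S1PR4-/- mice (SE 0.08, adjusted p = 2.09e-05). This is just past the fold threshold. The B cell groups overlapped, at 75.8 ± 11.2 CPM for WT GC B (SD, n = 6) and 72.5 ± 12.2 CPM for WT non-GC B cells (SD, n = 5).

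**Figure D2:**
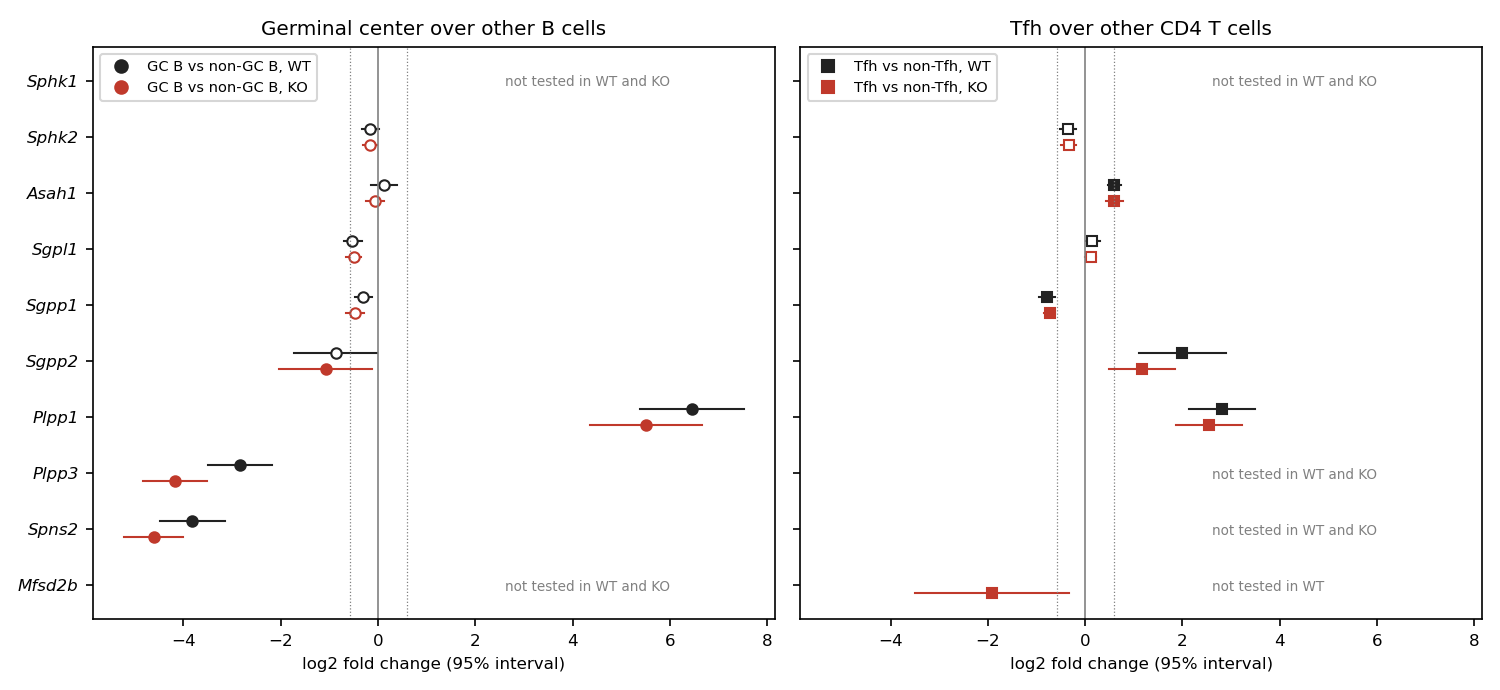
Log2 fold change with its 95% interval of GC B over non-GC B cells (left, circles) and Tfh over non-Tfh cells (right, squares), in WT (black) and S1PR4-/- mice (red); filled symbols passed the test and dotted lines mark 1.5-fold. Plpp1 lies to the right of 0 in both lineages, at 6.45 and 2.81 in WT cells, and Plpp3 and Spns2 passed the filter on low counts in B cells alone.

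Counted over the list, 3 of 8 tested members passed between WT GC B and non-GC B cells, 1 higher and 2 lower, where 24.8% of all tested genes were higher and 23.1% lower. In S1PR4-/- mice 4 of 8 passed, 1 higher (25.3% of all tested genes) and 3 lower (22.9%). Between WT Tfh and non-Tfh cells 4 of 6 passed, 3 higher (22.8% of all tested genes) and 1 lower (20.4%). In S1PR4-/- mice 5 of 7 passed, 3 higher (22.3%) and 2 lower (21.1%). The median log2 fold change of the tested members in WT cells was -0.42 in GC B and 0.38 in Tfh cells, against 0.00 over all tested genes in both. Genes left out of these counts had failed the filter on low counts, among them Plpp3 and Spns2 in T cells. With all 8 groups in 1 fit both passed in Tfh cells, with log2 fold changes of 2.19 for Plpp3 (adjusted p = 0.0106, edgeR) and 2.67 for Spns2 (adjusted p = 0.00955) in WT and of 5.66 (adjusted p = 4.01e-05) and 3.28 (adjusted p = 0.0281) in S1PR4-/- mice. These fits rest on non-Tfh groups with few or no counts, so their sizes are no bounds. In WT Tfh cells Spns2 was at 0.555, 1.11 and 1.22 CPM in replicates 1 to 3, the libraries with B cell RNA. It was at 0.0864 CPM or below in replicates 4 to 6. In S1PR4-/- Tfh cells it was highest, at 0.811 CPM, in replicate 3, the library of that group with the most Ighd. The part of B cell RNA in these fits was not tested.

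Plpp1 was the member that rose in both effector populations. It ran from 2.92 to 4.32 CPM (median 3.44) in WT Tfh cells and from 0.265 to 1.1 CPM (median 0.397) in WT non-Tfh cells, 7.09-fold higher by the means and without overlap. The log2 fold change was 2.81 in WT (SE 0.32, adjusted p = 1.86e-06, edgeR) and 2.55 in S1PR4-/- mice (SE 0.32, adjusted p = 5.88e-06). WT Tfh replicates 4 to 6, low in Ighd, were at 3.39, 3.39 and 4.32 CPM, as high as replicates 1 to 3. Without the Tfh libraries with RNA of other cells the log2 fold changes of Plpp1 were 2.89 in WT and 2.53 in S1PR4-/- mice. GC B cells were higher still, with a log2 fold change of 2.97 over Tfh cells in WT (SE 0.11, adjusted p = 5.14e-11, edgeR).

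Whether the step to the GC effector state differed between lineages was tested in WT cells with an interaction term, in which 41.7% of all tested genes had an adjusted p under 0.05. Of 9 tested members 7 did. The difference of the log2 fold changes, B cells minus T cells, was 3.57 for Plpp1 (SE 0.58, adjusted p = 2.88e-05, edgeR), -0.74 for Sgpl1 (adjusted p = 8.10e-06), 0.41 for Sgpp1 (adjusted p = 0.00501), -2.94 for Sgpp2 (adjusted p = 3.97e-04) and -0.54 for Asah1 (adjusted p = 0.00344). Plpp1 rose in both lineages and more in B cells. For Spns2 and Plpp3 the differences of -6.55 and -5.09 rest on T cell levels near the detection limit. That of Spns2 was -2.66 with an adjusted p of 0.391 without the libraries that held RNA of other cells.

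Between the lineages in WT mice, GC B cells had 3 members higher than Tfh cells (20.1% of all tested genes) and 0 lower (24.2%). They were Plpp1, Plpp3 with a log2 fold change of 3.82 (SE 0.58, adjusted p = 5.09e-05, edgeR) and Spns2 with 3.15 (SE 0.80, adjusted p = 0.00319). Without the libraries with RNA of other cells the value of Spns2 was 6.99. At an unadjusted p under 0.05 (edgeR) there were 6 of 8 tested members and 9613 of all 13719 tested genes. Besides Plpp1, Plpp3 and Spns2 the members were Sgpl1, Asah1 and Sphk2, with log2 fold changes of -0.19, 0.42 and -0.26.

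Non-GC B cells had 5 of 8 tested members higher than non-Tfh cells (19.7% of all tested genes) and 0 lower (19.1%). At an unadjusted p under 0.05 (edgeR) there were 7 members and 8408 of all 13669 tested genes. Asah1 was higher by 1.02 on the log2 scale (adjusted p = 1.03e-06, edgeR), Sgpl1 by 0.61 (adjusted p = 1.01e-05) and Sgpp2 by 3.51 (adjusted p = 8.52e-06). Sgpl1 lost this call in 4 of 18 alternatives (0.47 to 0.63 over all). Spns2 and Plpp3 were higher by 9.76 and 8.96 (adjusted p = 1.50e-09 and 3.28e-09), values that depend on the few T cell counts. Without non-Tfh replicate 5, the only WT non-Tfh library with a count of Spns2, the fitted value was 14.13, which is no bound. Sgpp1 and Sphk2 had log2 fold changes of -0.49 and -0.33 and stayed under the fold threshold.

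The study asked how loss of S1PR4 affects early events and GC formation after immunization, and sequenced these sorted cells for altered pathways. Between S1PR4-/- and WT cells, 0 of the tested members passed in any population. Among all tested genes 0.0612% passed in GC B cells, 0.0537% in non-GC B cells, 0.496% in Tfh cells and 0.114% in non-Tfh cells. In edgeR's test 1 member had an unadjusted p under 0.05 in GC B cells, where 540 of all 13070 tested genes did. In the other 3 populations 0 members did, and 0 passed with DESeq2 or limma voom. The intervals were narrow for the abundant enzymes. In GC B cells the log2 fold change of S1PR4-/- over WT was 0.04 for Sgpl1 (95% interval -0.14 to 0.21) and -0.07 for Plpp1 (-0.33 to 0.19). Those of Sgpp2 (-0.11, interval -1.18 to 0.97) and, in non-GC B cells, Plpp1 (0.87, interval -1.21 to 2.95) were wide. The lowest adjusted p among the members was 0.28, for Plpp1 in Tfh cells, with a log2 fold change of 0.33 (interval -0.01 to 0.68, edgeR).

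**Figure D3:**
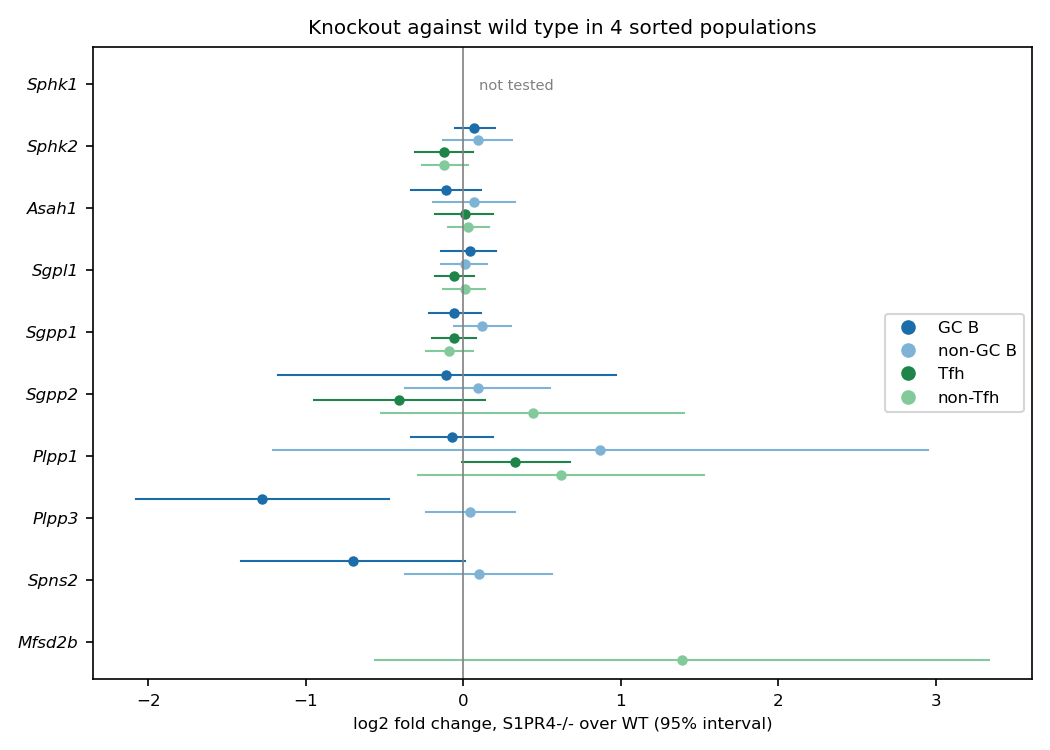
Log2 fold change of S1PR4-/- over WT cells with its 95% interval for each tested member in 4 populations, told apart by color. The interval of Plpp3 in GC B cells, from -2.08 to -0.47, is the 1 interval that leaves out 0, and its adjusted p is 0.985.

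The single member with an unadjusted p under 0.05 was Plpp3 in GC B cells. All 6 S1PR4-/- samples lay below all 6 WT samples, at 0.941 ± 0.37 CPM (SD, n = 6) against 2.28 ± 1.33 CPM (SD, n = 6). The groups all but met, at 1.38 CPM (38 counts) in the highest S1PR4-/- sample and 1.39 CPM (46 counts) in the lowest WT sample. The share of all genes that separate in this way was not counted. The log2 fold change was -1.28 (SE 0.37, edgeR's unadjusted p = 0.00454), and it failed the adjustment over all genes (adjusted p = 0.985). In non-GC B cells the log2 fold change of Plpp3 was 0.04 (interval -0.24 to 0.33), and the interaction of genotype and state was -1.32 with an adjusted p of 0.86 (edgeR). For this interaction 0 of 8 members and 0% of all 14490 tested genes had an adjusted p under 0.05 in edgeR's test, against 664 genes at an unadjusted p under 0.05 and 6 genes in DESeq2. In T cells 0 of 7 members and 0.0139% of all tested genes did. Spns2 was lower in S1PR4-/- GC B cells by a log2 fold change of -0.70 (interval -1.41 to 0.01), with overlapping samples.

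The gene of naive B cells, Ighd, differed between the same libraries. As a percent of the mean of non-GC B cells of the same genotype, WT GC B replicate 6 stood at 28.8% for Ighd, 14.4% for Spns2 and 28.6% for Plpp3, each the highest of the 12 GC B libraries. WT GC B replicate 5 followed at 16.2%, 6.96% and 14%. WT GC B replicates 1 to 4 ran from 4.49 to 11.5% for Ighd, 2.88 to 6.17% for Spns2 and 8.16 to 11.1% for Plpp3. The S1PR4-/- GC B libraries ran from 4.85 to 10.8% for Ighd, from 2.64 to 5.4% for Spns2 and from 1.9 to 7.86% for Plpp3. Leaving out 1 library at a time, the log2 fold change of Plpp3 between genotypes ran from -1.43 to -0.90, the smallest without WT replicate 6, and that of Spns2 from -0.85 to -0.34. The part of non-GC B cell RNA in these residual levels was not tested.

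**Figure D4:**
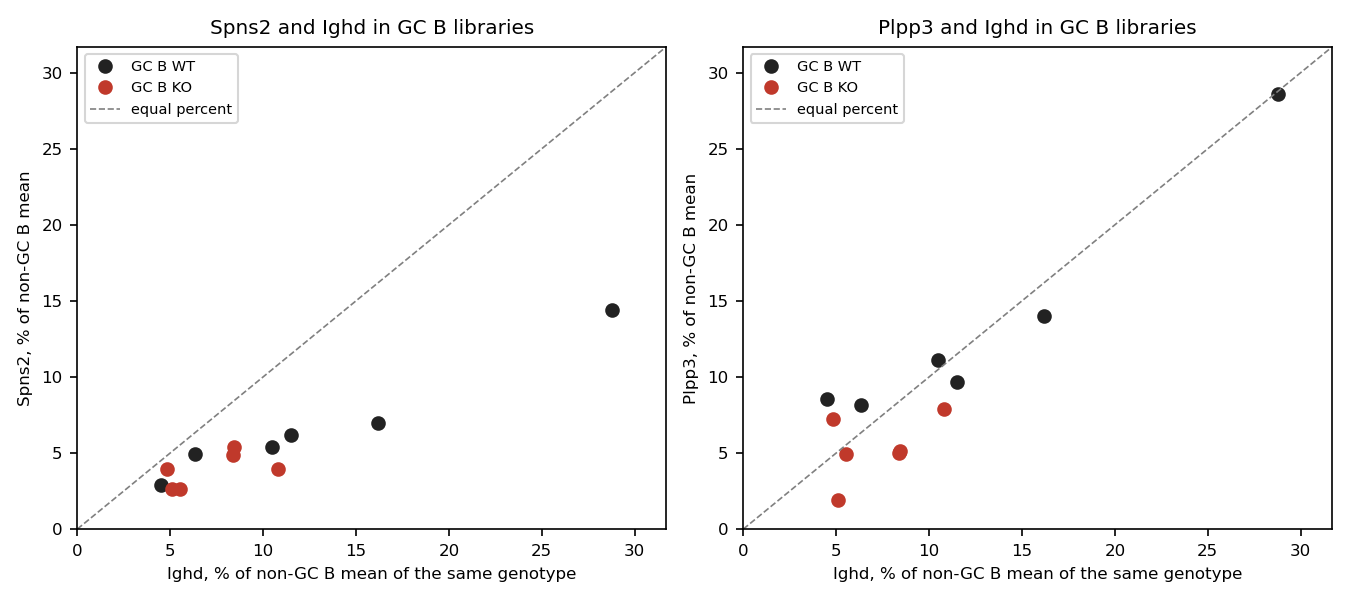
Spns2 (left) and Plpp3 (right) in each GC B library against Ighd, all as percent of the mean of non-GC B cells of the same genotype; black points are WT and red points S1PR4-/- libraries, and the dashed line marks equal percent. WT replicate 6 lies farthest to the right at 28.8%, and Spns2 lies below the line in all 12 libraries.

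The surrounding sphingolipid pathway was taken as 59 further genes in the table. In WT B cells 28 of 50 tested genes passed between the GC B and non-GC B populations, 7 higher and 21 lower, with a median log2 fold change of -0.42, where 24.8% of all tested genes were higher and 23.1% lower. Of 16 tested sphingomyelinases and lysosomal enzymes 10 were lower and 3 higher (Smpdl3b, Gla and Smpd4). Of 7 tested genes that convert or carry ceramide 4 were lower, including the sphingomyelin synthase Sgms1 at 51.95 against 199.4 CPM (log2 fold change -1.88, adjusted p = 2.49e-07, edgeR). The ceramide synthase Cers4 was at 21.48 against 72.29 CPM (-1.69, adjusted p = 2.05e-07). The lipid exporter Abca1 was at 62.54 against 280.2 CPM (-2.10, adjusted p = 8.53e-07, edgeR).

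Among the higher pathway genes in WT GC B cells was Plpp5, another member of the phospholipid phosphatase family, at 46.89 against 3.671 CPM (log2 fold change 3.74, adjusted p = 4.70e-07, edgeR). Mfsd2a, a lipid transporter related to Mfsd2b, was at 3.891 against 0.6049 CPM (2.73, adjusted p = 7.38e-04). Both were also higher in WT Tfh than in non-Tfh cells, with log2 fold changes of 2.65 (adjusted p = 2.53e-08) and 2.26 (adjusted p = 1.25e-07), so that Plpp5 shared with Plpp1 a rise in both effector populations.

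In WT Tfh cells 20 of 49 tested pathway genes passed, 10 higher and 10 lower, with a median log2 fold change of -0.10, close to the 22.8% higher and 20.4% lower of all tested genes. Besides Plpp5 and Mfsd2a, the higher genes included Smpdl3b at 7.041 against 0.6631 CPM (log2 fold change 3.40, adjusted p = 2.16e-08, edgeR), Plpp2 (2.26, adjusted p = 1.59e-07) and Spns3, a homolog of Spns2 (1.82, adjusted p = 0.0114). Lower genes included Abca1 (-2.94, adjusted p = 2.46e-05), the sphingomyelinase Smpd5 (-2.25, adjusted p = 2.36e-09), the alkaline ceramidase Acer2 at 2.851 against 11.18 CPM (-1.97, adjusted p = 4.62e-07) and the transporter Abcg2 (-1.88, adjusted p = 2.93e-08). In S1PR4-/- mice 30 of 50 passed in GC B cells, 8 higher and 22 lower (25.3% and 22.9% of all tested genes), and 22 of 49 in Tfh cells, 10 higher and 12 lower (22.3% and 21.1%). Between genotypes 0 pathway genes passed in any population with edgeR, DESeq2 or limma voom. At an unadjusted p under 0.05 (edgeR) there were 2 in GC B (540 of all 13070 tested genes) and 2 in non-GC B cells (593 of all 13038). There were 16 in Tfh (2586 of all 13495) and 10 in non-Tfh cells (1486 of all 13197). In Tfh cells 2 pathway genes and 190 of all 13495 tested genes had an adjusted p under 0.05 in edgeR's test. These 2 pathway genes stayed under the fold threshold.

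Genes whose levels followed each member most closely were sought among 12027 genes with a mean of at least 1 CPM, by Pearson's r of log2 CPM over the 45 samples. These samples share 8 groups, so r mostly reflects differences between groups and is given as a description. Spns2 was closest to B3gnt5 (r = 0.973) and Ighd (0.971), and Plpp3 to Rasgef1b (0.970) and B3gnt5 (0.970). Plpp1 was closest to Ddx19a (0.954). Sgpp1 was closest to Siah1a (0.954) and Smad4 (0.945), and Asah1 to the lysosomal protease genes Scpep1 and Ctsz (both 0.941). Sgpl1 was closest to Csnk1g3 (0.909), Sphk2 to Gm11131 (0.871) and Sgpp2 to Hes1 (0.869).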

How the data were processed

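RNA was measured in 45 samples of 4 sorted lymphocyte populations from WT and S1PR4-/- mice. The authors deposited expected counts from RSEM 1.3.0, made after trimming by Cutadapt 2.10 and alignment by STAR 2.5.3 (mm10), with no scaling for depth or length. RSEM divides reads that fit several genes, and 8.83% of the values were not whole. The study's methods name another GENCODE release, but the 55450 genes matched release M21 (55423 symbols found, 111 repeated symbols kept apart), which gave exon lengths and positions.

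Groups and replicate numbers came from the labels; days, sort gates and doses came from the study's methods. Counts were rounded, filtered with filterByExpr, normalized by TMM and tested with edgeR 4.0.16 (R 4.3.3, quasi-likelihood) over all genes. Standard errors and 95% intervals were derived from the F statistic. A gene passed at an FDR (Benjamini-Hochberg adjusted p) under 0.05 and a fold over 1.5, or by FDR alone for interactions. CPM used TMM over all 45 samples, and log2 CPM a prior count of 2. Depth ran from 26299429 to 45548215 counts, and the floor of 3 counts covers counting error only. The study's methods give mice per genotype but do not tie each library to a mouse, so p-values measure the spread between samples. The fits were tested on simulated data.

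Alternatives were DESeq2 1.42.0 (test, and size factors in edgeR), limma 3.58.1 voom, total counts, no filter, all groups in 1 fit, a replicate block, Xist or B cell markers as covariates and leaving out each sample. Numbers were taken to pair samples where every same-numbered pair's deviations correlated over 0.1, which held for S1PR4-/- Tfh and non-Tfh samples (0.13 to 0.24) and not for WT (0.07 to 0.35), so the block stands beside the former. The 10 genes and the pathway and marker lists were chosen with earlier results of these data known. All 10 members were named, plus the 5 pathway genes with the largest change in each direction in GC B or Tfh cells of WT mice among those that passed with a mean of at least 1 CPM. Some genes that these rules name are not reported here. Promoters are from RefSeq (GRCm38.p6).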

Additional observations from a re-analysis of the deposited data

Results flagged for a closer look

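Among 63 sets of 1 member in 1 group of 4 or more samples, 10 held a library far from the others, where the 95% critical value used would mark about 1 in 20 groups of normally spread values by chance, and many of these values were near 0. Some, but not all, of the libraries that also held RNA of other cells were among them. S1PR4-/- Tfh replicate 3, the S1PR4-/- Tfh library with the most Ighd, was the highest of its group for Sgpp2 (3.82 CPM), Plpp3 (0.473 CPM) and Spns2 (0.811 CPM). WT GC B replicate 6, the GC B library with the most Ighd, was the highest of its group for Plpp3 (4.9 CPM) and Spns2 (9.24 CPM), and WT GC B replicate 2, high in Jchain, for Sgpp2 (11.6 CPM).

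In WT non-Tfh cells, replicate 5 was alone in having counts of Spns2 (0.44 CPM), replicate 6 was highest for Plpp3 (0.164 CPM) and replicate 1 for Plpp1 (1.1 CPM, 43.2 counts). Sgpl1 was lowest in S1PR4-/- Tfh replicate 5, at 145 CPM.

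The effect of the GC effector state differed between WT B and T cells in edgeR's interaction test for 7 members and for 41.7% of all tested genes. The log2 differences were -0.74 for Sgpl1, 0.41 for Sgpp1, 3.57 for Plpp1, -5.09 for Plpp3, -0.54 for Asah1, -2.94 for Sgpp2 and -6.55 for Spns2. Those of Plpp3 and Spns2 rest on T cell levels near the detection limit. Without the libraries that held RNA of other cells, Spns2 was at -2.66 and did not pass. B and T cells were sorted on different days, so lineage and day cannot be told apart.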

How the results depend on the processing

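For the 31 results on single members that passed, 685 alternative values were computed, of which 647 kept direction and call, 38 kept direction but lost the call and 0 reversed. The losses were in 7 results, 12 of them in Sgpp2 between S1PR4-/- GC B and non-GC B cells (log2 fold change -1.65 to -0.90), 10 in Asah1 (0.52 to 0.63) and 8 in Mfsd2b (-2.34 to -1.21) between S1PR4-/- Tfh and non-Tfh cells, and 4 in Sgpl1 between WT non-GC B and non-Tfh cells (0.47 to 0.63). Asah1 and Sgpp2 in these comparisons are therefore close to the threshold. Plpp1, Plpp3 and Spns2 in GC B cells and Plpp1 and Sgpp1 in Tfh cells lost no call under the alternatives run.

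Of the counts of members, that between WT GC B and non-GC B cells (3) was 5 with total counts and 5 with all groups in 1 fit (Sgpl1 and Sgpp2 added). It was 5 by FDR with no fold threshold, where 8954 of all 13324 tested genes passed. By FDR with no fold threshold it was 7 in S1PR4-/- B cells (8712 of all 13484 tested genes) and 6 between WT GC B and Tfh cells (9301 of all 13719). Between WT GC B and Tfh cells it was 5 with no filter on low counts. Between S1PR4-/- Tfh and non-Tfh cells (5) it was 3 with limma voom, which lost Asah1 and Mfsd2b, and ran from 3 to 5 when 1 sample was left out, 3 without Tfh replicate 6 or non-Tfh replicate 5. With no filter on low counts it was 7, with Plpp3 and Spns2 added, and the WT count (4) was 6 with all groups in 1 fit, with the same additions. Pathway counts in Tfh cells by FDR with no fold threshold were 40 in WT (9262 of all 13481 tested genes) and 41 in S1PR4-/- mice (9468 of all 13390).

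With the replicate number as a block, 4 members passed between S1PR4-/- Tfh and non-Tfh cells, as Mfsd2b was lost. Their adjusted p with the block (edgeR) were 2.54e-06 for Sgpp1, 1.23e-04 for Plpp1, 8.66e-05 for Asah1 and 0.0216 for Sgpp2. Between WT GC B and non-GC B cells 4 passed with the block, as Sgpp2 passed. Between S1PR4-/- GC B and non-GC B cells 3 did, as Sgpp2 was lost. Same-numbered samples correlated at 0.07 to 0.35 in WT T cells (4 of 6 best with their own number), at -0.03 to 0.18 in WT B cells (4 of 5) and at -0.09 to 0.04 in S1PR4-/- B cells (0 of 4), a hint of pairing in WT that did not meet the threshold of 0.1 in every pair. Over all genes, the count between S1PR4-/- and WT Tfh cells was 67, 184 with DESeq2 and 13 without the libraries that held RNA of other cells. Low counts limit what can be said of Sphk1 and Mfsd2b in every group and of Spns2 and Plpp3 in T cells.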
